A study of Mus musculus with 6 samples.

Results

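The regions described here carried an H3K4me3 peak in STHdhQ111 cells given cyproheptadine and no peak in any of the other 5 conditions profiled. Overlapping peaks of the 6 deposited lists were joined into 61171 merged regions, and a region was kept when it held a cyproheptadine peak and no peak of another list. This gave 2189 cyproheptadine-only regions, 3.58% of all merged regions and 12.1% of the 18101 regions found in 1 list. Each of them consisted of 1 peak, so that 6.49% of the 33721 cyproheptadine peaks were cyproheptadine-only (95% Wilson interval 6.23% to 6.76%). The regions were chosen by these peak calls, at the threshold each list was deposited with, so their absence from the other lists is the rule and not a result.

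STHdh cells are conditionally immortalized striatal progenitor lines from C57BL/6 mice, used as a cell culture model of Huntington's disease. The wild type line, STHdh7 in the labels and STHdhQ7 in the study, was sampled with vehicle (Q7SST). The mutant STHdhQ111 line is homozygous for a knocked-in huntingtin gene with an expanded CAG tract, and was sampled with vehicle (Q111SST) or with 10 uM cyproheptadine, loxapine, diacylglycerol kinase inhibitor II (DKI) or meclizine. Every sample was held without serum for 24 hours, so serum starvation was common to treated and control cells, and each genotype was represented by 1 line. There was 1 peak list per condition. No replicate spread could therefore be computed and no comparison between conditions was tested. Intervals on shares cover counting error only, and neighbouring regions are not independent of each other.

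H3K4me3, the trimethylated lysine 4 of histone H3, is laid down by the SET1 and MLL methyltransferase complexes. It is strongest on the nucleosomes that flank active transcription start sites, above all at promoters rich in CpG dinucleotides, whose unmethylated CpGs are bound by CXXC domain proteins of those complexes. Weaker H3K4me3 is also seen at some enhancers and at other open sites away from promoters. Cyproheptadine is an antagonist of the histamine H1 receptor and of several serotonin receptors, and also blocks muscarinic receptors.

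The cyproheptadine-only regions of highest score shared a short tandem repeat, and their sequences are shown for that reason. The score is the whole number deposited with each peak, with 10 as the lowest value in every list. The sequences are the plus strand of GRCm38, 300 bp about the centre of the region, and capitals mark each run of at least 5 ATTCC units, or of its reverse complement GGAAT.
Intergenic, score 213, chr17:4626207-4626506: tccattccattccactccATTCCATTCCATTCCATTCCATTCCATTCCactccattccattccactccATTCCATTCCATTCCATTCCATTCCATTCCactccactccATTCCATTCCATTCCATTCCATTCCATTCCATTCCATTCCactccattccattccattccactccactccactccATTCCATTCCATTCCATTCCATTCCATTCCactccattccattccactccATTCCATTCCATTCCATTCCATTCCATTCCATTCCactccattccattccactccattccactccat
Intergenic, score 174, chr1:12644659-12644958: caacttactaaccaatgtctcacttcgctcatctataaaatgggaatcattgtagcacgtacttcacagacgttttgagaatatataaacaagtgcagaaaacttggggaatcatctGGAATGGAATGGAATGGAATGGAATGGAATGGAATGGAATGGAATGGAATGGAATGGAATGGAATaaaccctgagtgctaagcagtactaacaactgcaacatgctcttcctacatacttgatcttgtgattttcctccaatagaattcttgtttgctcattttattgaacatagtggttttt
Intergenic, score 140, chr2:60402649-60402948: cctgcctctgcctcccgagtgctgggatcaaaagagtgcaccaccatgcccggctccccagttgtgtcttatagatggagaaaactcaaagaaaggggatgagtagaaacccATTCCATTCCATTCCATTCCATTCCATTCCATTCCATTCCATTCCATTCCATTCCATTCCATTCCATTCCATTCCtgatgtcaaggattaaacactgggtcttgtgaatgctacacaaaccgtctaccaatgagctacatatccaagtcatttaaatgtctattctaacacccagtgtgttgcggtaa

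The region of score 213 spanned chr17:4626064-4626650 and lay 8327 bp from the start of the long noncoding RNA gene 4930517M08Rik. It held 7 such runs. The region of score 174 (chr1:12644631-12644987) had 1 run of 13 units, and the region of score 140 (chr2:60402624-60402973) had 1 run of 15 units. The nearest peak of another list was 151722 bp, 12996 bp and 18796 bp away from these 3 regions, respectively. They stood far above the cyproheptadine-only regions as a whole, whose median score was 13.

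The repeat was then counted in the whole genome. This search was added after the sequences of the strongest regions had been read. Chromosomes 1 to 19 and X held 43 runs of at least 5 units, which formed 35 loci when runs within 1 kb of each other were joined. Of these 35 loci, 16 lay under a cyproheptadine peak (45.7%), and 0 lay under a peak of Q7SST, Q111SST, loxapine, DKI or meclizine. The 16 peaks were all cyproheptadine-only regions. They made up 0.731% of the 2189 regions (0.450% to 1.18%) and 10 of the 13 regions with a score over 50. All 5 regions with a score over 100 were among them. With a minimum of 4 or 6 units the number of loci under a cyproheptadine peak was again 16, and that of each other list was again 0. With a minimum of 3 units, 17 of 101 loci lay under a cyproheptadine peak and between 1 and 3 under a peak of each other list. A peak list holds only what passed its threshold, so these counts say nothing of weaker signal in the other samples.

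The repeat sat in the middle of these regions. The centre of the nearest run was a median of 4.5 bp from the centre of the region, with a range of 0 bp to 176.5 bp. The 16 regions had scores from 19 to 213 with a median of 60.5, and a median width of 342 bp. Their longest run had a median of 11.5 units, against 8 units in the 19 loci under no peak, and the ranges overlapped, 6 to 15 units against 5 to 11. Of the 16 regions, 3 were intronic, among them the region of score 137 in Dpp9 (chr17:56199868-56200227), which encodes a serine dipeptidyl peptidase, and that of score 57 in Ano2 (chr6:125876772-125877114), which encodes a calcium-activated chloride channel. The region of score 125 (chr6:132463587-132463939) lay 613 bp from the start of Gm45063, a processed pseudogene. The remaining regions were intergenic, and the regions of score 66 (chr1:44951074-44951424), 64 (chr9:19575305-19575643) and 67 (chr11:25099975-25100278) were nearest to the starts of Gm3496, the olfactory receptor gene Olfr855 and 4933427E13Rik. The reads were single-end and 50 bases long, and how reads that match several places were placed is not given in the sources used here. The origin of the reads under these 16 peaks was not examined, and whether their scores measure H3K4me3 was not tested.

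**Figure D1:**
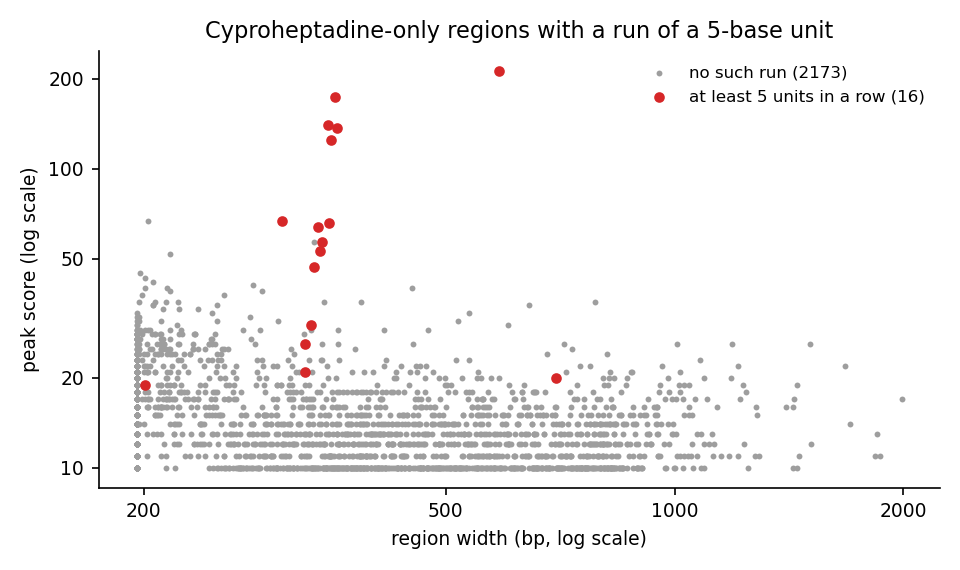
Score (authors' units, log scale) against width (bp, log scale) of the 2189 cyproheptadine-only regions, 1 point per region. Red points are the 16 regions with at least 5 ATTCC or GGAAT units in a row, which include all 5 regions with a score over 100. Most grey points lie below a score of 20.

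Outside this set, scores over 50 were rare. Only 3 regions without the repeat passed 50. The strongest, with a score of 67, lay 385 bp from the start of Phf23 (chr11:69995189-69995391), a PHD finger gene whose product reads H3K4me3. The others had scores of 57 (chr16:74780420-74780754, nearest start Gm49674 at 95183 bp) and 52 (chr8:129300994-129301210, nearest start Gm32856 at 37345 bp). These last regions were picked out after their values were seen.

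As a group, the cyproheptadine-only regions were weak. Their quartiles of score were 11 and 17, and 516 of them (23.6%) had the lowest score of 10. The median region stood at percentile 6.84 of the cyproheptadine list. Cyproheptadine peaks in regions of 2 to 5 lists had a median score of 22, and those in regions of all 6 lists a median of 59. The score of the peak and the call that chose the regions come from the same list, so this is a description of the rule's outcome. Low standing was shared by other regions found in 1 list. The median percentile within the own list was 6.93 for DKI-only, 9.81 for Q111SST-only, 9.97 for meclizine-only and 11.4 for loxapine-only regions, and 24.4 for Q7SST-only regions. By score, the share of cyproheptadine peaks that were cyproheptadine-only fell from 46.4% at scores of 10 or 11 to 28.0% at 12 to 14, 14.8% at 15 to 19 and 5.26% at 20 to 29. It was 0.611% at 30 to 49, 0.0853% at 50 to 99 and 0.105% at 100 or more, the last being 5 of 4762 peaks, all with the repeat.

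**Figure D2:**
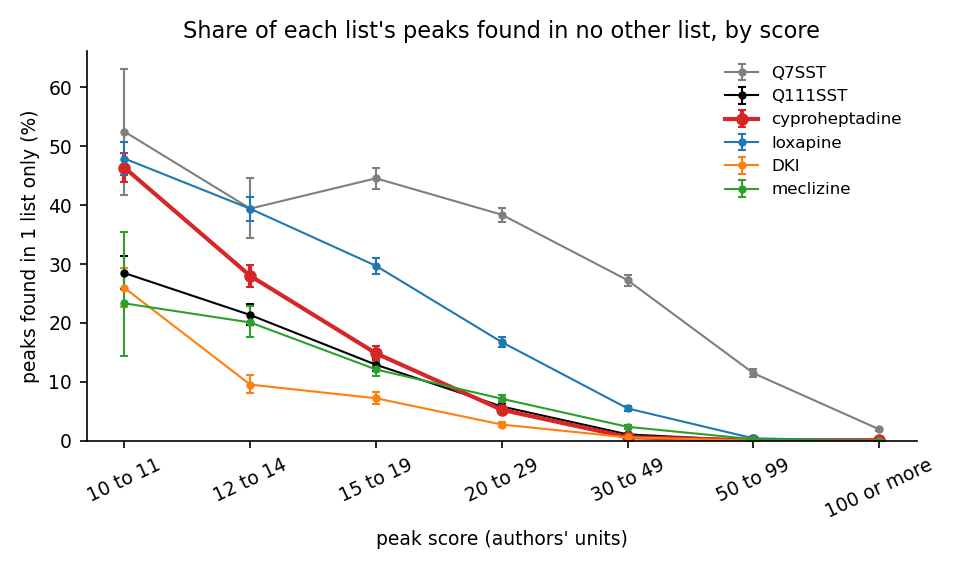
Share of the peaks of each list that lay in no other list (%), by score band (authors' units), with 95% Wilson intervals and 1 line per list. In the cyproheptadine list (red) the share falls from 46.4% at scores of 10 or 11 to 0.611% at 30 to 49. The score scale may differ between lists, so the lines are to be read 1 by 1.

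The regions were also narrow. The median width was 381 bp, with quartiles of 238 and 592 bp, where cyproheptadine peaks in the regions of all 6 lists had a median of 1055 bp. This was shared with other regions found in 1 list, whose medians were 525 bp (Q7SST-only), 337 bp (Q111SST-only), 335 bp (loxapine-only), 310.5 bp (DKI-only) and 278 bp (meclizine-only). The narrowest were 196 bp wide, and 337 of the cyproheptadine-only regions (15.4%) had that width, against 2.998% of the whole cyproheptadine list. Only 67 regions (3.06%) were wider than 1 kb, against 37.6% of the list. The widest region covered 1990 bp (chr5:14959322-14961311) with a score of 17, in the intergenic space 17623 bp from the start of Gm10354. The next had widths of 1864 bp over an exon of Ect2, which encodes an exchange factor needed for cytokinesis, 1846 bp at the start of Zfp982, 1834 bp near Cst7, which encodes a cystatin, and 1704 bp in an intron of 1700034P13Rik. Their scores were 11, 13, 11 and 14, so the widest regions were not the strongest.

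Some regions nearly met a peak of another list. The 5 regions closest to exclusion lay 1, 2, 7, 12 and 13 bp from the nearest peak of another list and had scores of 13, 11, 13, 13 and 15. The 5 cyproheptadine peaks just excluded overlapped another list by 1, 1, 3, 3 and 5 bp and had scores of 16, 18, 15, 11 and 29. In all, 26 of the 2189 regions lay within 50 bp of a peak of another list, and 32 excluded peaks overlapped another list by at most 50 bp. The median distance to the nearest peak of any other list was 15660 bp. That peak was within 1 kb for 148 regions (6.76%), within 5 kb for 486 (22.2%), and farther than 50 kb for 515 (23.5%). The regions with no neighbour within 50 kb had a median score of 13, against 14 for those with one within 1 kb.

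Most cyproheptadine-only regions were far from promoters. A start of any annotated gene lay within 1 kb of 129 regions, which is 5.89% (4.98% to 6.96%), against 58.5% of the regions in all 6 lists. Loxapine-only regions had 7.27% (6.54% to 8.06%), DKI-only regions 7.75% (5.97% to 10.0%) and meclizine-only regions 13.4% (11.6% to 15.5%). The loxapine and DKI intervals both overlapped that of cyproheptadine, and that of meclizine lay above all of them. The shares of Q111SST-only and Q7SST-only regions were 9.44% and 16.6%. A start lay under 18 cyproheptadine-only regions (0.822%). Of the regions with no start within 1 kb, 129 (5.89% of all 2189) overlapped an exon, 844 (38.6%) lay in an intron and 1087 (49.7%) were intergenic. The median distance was 15874 bp to a start and 62089 bp to the nearest region of all 6 lists. With a reciprocal overlap of 50% required for sharing, 4661 peaks were cyproheptadine-only, the share within 1 kb of a start was 14.4% and the median distance to a region of all 6 lists was 25154 bp. The distance to such a region under the main rule was between 21249 bp (Q111SST-only) and 45480.5 bp (DKI-only) for regions found in 1 of the other lists. A processed pseudogene, a gene copy made from reverse-transcribed RNA, was the nearest start for 549 regions (25.1%), against 12.1% of all merged regions, and a protein-coding gene for 820 (37.5%) against 58.1%.

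The base composition of the regions was low in G and C. The median GC content was 33.1% (quartiles 29.5% and 37.1%), below the 41.8% of chromosomes 1 to 19 and X. The other lists' own regions had medians of 44.0% (Q7SST-only), 43.2% (Q111SST-only), 40.8% (loxapine-only), 36.3% (DKI-only) and 45.3% (meclizine-only). Regions of all 6 lists had 48.8%. The step was already present at the next level of sharing, since cyproheptadine regions found in exactly 2 lists had a median of 40.1%, those in 3 lists 41.1%, in 4 lists 42.0% and in 5 lists 43.1%. Low GC content was not limited to the lowest scores. Cyproheptadine-only regions with scores of 20 or more had a median GC content of 34.6% (341 regions), against 32.7% at scores of 10 to 14 (1352 regions), and the 326 regions of 20 or more without the ATTCC repeat had 34.2%. When peaks under a score of 47, the median over all 6 lists, were dropped from every list, 115 regions were cyproheptadine-only with a median GC content of 42.4%. Only 14 of these belonged to the 2189, and the other 101 became cyproheptadine-only because weaker peaks of the other lists were gone, so the value mostly describes other regions. The 14 themselves had a median GC content of 40.2%, but 11 of them held the ATTCC repeat, and the 3 without it had 33.4%, 38.9% and 42.9%.

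**Figure D3:**
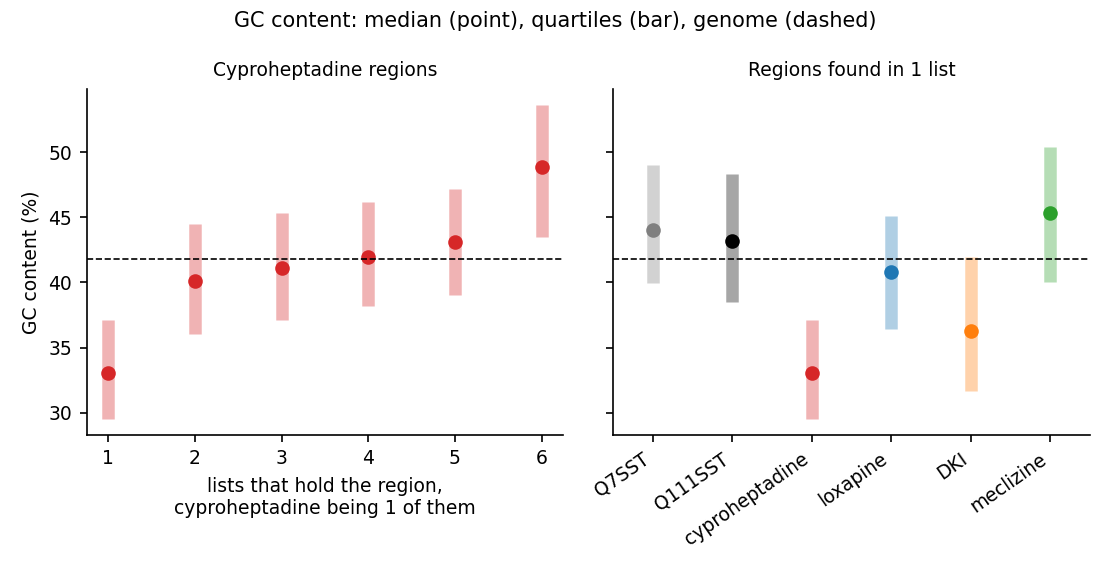
GC content (%) of regions that hold a cyproheptadine peak, by the number of lists that share them (left), and of regions found in 1 list, by list (right). Points are medians, bars run from the lower to the upper quartile and the dashed line is the genome at 41.8%. The cyproheptadine-only regions have the lowest median, 33.1%, and DKI-only regions are next at 36.3%.

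CpG dinucleotides were few as well. The ratio of observed to expected CpG had a median of 0.120, against 0.450 in the regions of all 6 lists and 0.237 in all merged regions. Only 1 region (0.0458%) had both a GC content over 55% and a ratio over 0.6, the usual marks of a CpG island, against 11.6% of the regions of all 6 lists. Loxapine-only and DKI-only regions were low in CpG too, with median ratios of 0.153 and 0.156, and 0.112% and 0.733% of them met both marks. Repeats masked in the reference made up 27.8% of the bases, against 14.5% in the regions of all 6 lists, 20.4% in loxapine-only regions and 24.4% in DKI-only regions. The regions shown next are those of highest score within 1 kb of a protein-coding start, together with the strongest region in Csmd3, an intronic region of low GC content that was added after its values were seen. All are on the plus strand of GRCm38, up to 300 bp about the centre, and capitals mark CG dinucleotides.
Phf23, score 67, chr11:69995189-69995391: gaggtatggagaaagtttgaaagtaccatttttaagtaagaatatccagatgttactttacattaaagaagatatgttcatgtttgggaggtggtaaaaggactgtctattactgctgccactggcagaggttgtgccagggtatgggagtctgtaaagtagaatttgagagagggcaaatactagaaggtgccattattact
Frmd6, score 45, chr12:70824751-70824948: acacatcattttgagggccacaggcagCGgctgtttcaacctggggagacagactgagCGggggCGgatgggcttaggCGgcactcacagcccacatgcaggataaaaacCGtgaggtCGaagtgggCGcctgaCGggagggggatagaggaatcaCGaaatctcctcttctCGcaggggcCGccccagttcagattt
Sspn, score 40, chr6:145932713-145933012: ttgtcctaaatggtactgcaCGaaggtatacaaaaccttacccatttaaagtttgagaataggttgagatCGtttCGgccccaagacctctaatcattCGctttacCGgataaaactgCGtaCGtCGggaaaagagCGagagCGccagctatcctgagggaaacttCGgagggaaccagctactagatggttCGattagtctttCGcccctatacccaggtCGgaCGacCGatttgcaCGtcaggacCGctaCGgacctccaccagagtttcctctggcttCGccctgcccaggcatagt
Csmd3, score 33, chr15:47658227-47658526: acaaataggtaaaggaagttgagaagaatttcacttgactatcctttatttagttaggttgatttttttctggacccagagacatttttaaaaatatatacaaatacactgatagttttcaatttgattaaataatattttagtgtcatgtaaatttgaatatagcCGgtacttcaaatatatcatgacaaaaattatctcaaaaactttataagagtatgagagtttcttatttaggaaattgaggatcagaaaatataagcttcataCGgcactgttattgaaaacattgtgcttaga

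The Frmd6 and Sspn windows were unlike the group. Frmd6 encodes a FERM domain protein linked to Hippo signalling, and its window had 11 CG dinucleotides and a GC content of 59.1%. Sspn encodes sarcospan, a member of the dystrophin complex, and its window had 20 CG dinucleotides and a GC content of 51.0%. The Phf23 window had 0 and the Csmd3 window 2, with GC contents of 38.9% and 27.0%.

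Protein-coding promoters with a cyproheptadine-only region were few. A start within 1 kb was found for 72 of 21992 protein-coding genes, which is 0.327% of them, and a start directly under a region for 12. Of the 72 genes, 39 had a peak within 1 kb of a start in all 5 other lists, 5 in some of them and 28 in none. For scale, 55.1% of all protein-coding genes were marked at a start in the whole cyproheptadine list. The split of the 72 genes is therefore not a trait particular to them. At the 39 genes the other lists marked the same start or another start of the gene. Frmd6, Sspn, Prkci (score 27), Mphosph8 (score 24), Slc1a2 (score 23), Pbrm1 (score 21) and Mrps9 (score 20) were of this kind. Prkci encodes an atypical protein kinase C, Mphosph8 a HUSH complex subunit that binds methylated lysine 9 of histone H3, Slc1a2 the astrocyte glutamate transporter, Pbrm1 the polybromo subunit of the PBAF remodelling complex, and Mrps9 a mitochondrial ribosomal protein. At Frmd6 the nearest peak of another list lay 1091 bp away and at Prkci 14619 bp away. Phf23 was marked in 2 of the other lists.

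The 28 genes marked at a start in the cyproheptadine list alone were kept for having no marked start in the other 5 lists. The highest scores were 33 for Csmd3, 28 for Ifi202b, an interferon-induced DNA-binding protein, 26 for Zfp982, a zinc finger gene, and 23 for 2410141K09Rik, where the best region of the gene is given and need not be the one at the start. Olfactory receptor genes, which are 1092 of the 21992 protein-coding genes and of which 13 were marked at a start in the cyproheptadine list, made up 8 of the 28, not counting Olfr1315-ps1, with best scores between 10 and 18. Cyp2c66, a cytochrome P450, Car5a, a mitochondrial carbonic anhydrase, Asz1, a germ cell gene, and Amy1, an amylase, had scores of 17, 14, 15 and 10. None of these came near the median score of 59 of cyproheptadine peaks in the regions of all 6 lists.

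More genes held a region in the body. Counting the body and 1 kb about each start, 740 of 21992 protein-coding genes held at least 1 cyproheptadine-only region, or 3.36%, and 112 held 2 or more. The genes with a region had a median length of 103 kb, against 17.3 kb for all protein-coding genes. Per length there was little difference between genes and the rest of the genome. Protein-coding gene bodies held 8.52 regions per 10 Mb and the remainder of chromosomes 1 to 19 and X held 8.13. Most regions were at Cdh18 with 16, Cdh12 with 11, Csmd3 with 10, Ctnna3 with 7 and Nbea with 7. Cdh18 and Cdh12 encode neuronal type II cadherins, Csmd3 a large CUB and sushi domain membrane protein, Ctnna3 an alpha-catenin and Nbea neurobeachin, a scaffold of membrane trafficking.

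These genes were then read across the lists. The body of Cdh18 (chr15:22549022-23474418) held 24 peaks with cyproheptadine, 21 with loxapine, 14 in Q111SST, 13 in Q7SST, 10 with DKI and 9 with meclizine. Cdh12 (chr15:20449265-21589533) held 16 peaks with cyproheptadine, 7 with loxapine, 6 in Q111SST and 4 in each of Q7SST, DKI and meclizine. Csmd3 (chr15:47580637-48792063) held 11 peaks with cyproheptadine, against 3 to 5 in the other lists. In Cdh18, Cdh12 and Csmd3 respectively 16, 11 and 9 of the cyproheptadine peaks were the cyproheptadine-only regions for which the genes were picked, so that the larger count in this list follows from the choice. Ctnna3 held 20 peaks with cyproheptadine, 16 with loxapine, 15 with DKI, 13 with meclizine, 12 in Q111SST and 11 in Q7SST. Nbea held 12 with cyproheptadine and with loxapine, 9 in Q7SST and 6 in each of the others. The regions within Cdh18 had scores of 10 to 19, and 15 of the 16 were intronic.

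The gene lists examined gave few regions. Among 35 autophagy genes, all marked at a start in all 6 lists, 3 held a region (8.57%): Atg5, needed to conjugate Atg12, with a score of 19, Ulk2, an initiating kinase, with 12, and Ambra1, a Beclin 1 partner, with 10. None of these regions was within 1 kb of a start. Among 23 genes of histamine, serotonin and muscarinic receptors, where the targets of cyproheptadine lie, 1 held a region: Htr2c, the serotonin 2C receptor, with a score of 10 in an intron, 211954 bp from a start. Of 35 genes of the ERK cascade 2 held a region (5.71%), among them Sos2, a guanine nucleotide exchange factor, with a score of 10. Of 20 striatal neuron genes, Foxp2 (score 18) and Ebf1 (score 11), both transcription factors, held 1 region each. Of 22 voltage-gated channel genes, Kcnq5, a potassium channel, and Scn3a, a sodium channel, did, with scores of 21 and 12. Against 3.36% of all protein-coding genes, these shares rest on 1 to 3 genes each.

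A list of long genes, chosen mainly for synaptic adhesion, gave the largest share, 11 of 30 (36.7%). Csmd3 (best score 33), Macrod2 (score 29), Ctnna3 (best score 25) and Dcc (score 17) had the highest scores. Macrod2 encodes an ADP-ribose hydrolase, which is not an adhesion protein, and Dcc the netrin receptor. These genes had a median length of 1175 kb. Per length they held 6.88 regions per 10 Mb, below the 8.52 of all protein-coding gene bodies. Olfactory receptor genes had a region at 17 of 1092 (1.56%) and vomeronasal receptor genes at 12 of 328 (3.66%), but per length both families held more, 21.9 and 21.2 per 10 Mb, from 16 and 11 regions. Their highest scores were at Olfr1242 (27), Olfr1247 (26), Olfr787 (21), Olfr814 (18), Vmn2r80 (24) and Vmn2r109 (19), with 18 at each of Vmn2r1, Vmn2r25 and Vmn2r87. Of 365 zinc finger genes named Zfp, 9 held a region (2.47%), led by Zfp982 (best score 26), Zfp600 (score 23), Zfp980 (best score 17) and Zfp618 (best score 15). Per length the zinc finger genes held 11.0 regions per 10 Mb, from 12 regions.

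The labelled cell type was checked against its markers. In the cyproheptadine list 9 of 16 neural progenitor genes and 7 of 20 striatal neuron genes were marked within 1 kb of a start. Nes and Pax6 among the former and Drd1 and Drd2 among the latter were not. Of all protein-coding genes, 55.1% were marked at a start in this list, so neither count identifies the cell type. The counts were 11 and 10 in Q111SST and 13 and 13 in Q7SST. Markers of glia, blood and vessel were marked at 2 of 18, and none of the 16 neural progenitor genes held a cyproheptadine-only region. Ptprc, a marker of blood cells that no list marked at a start, held 3 cyproheptadine-only regions in its body, the strongest with a score of 17.

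The regions were unevenly spread over the chromosomes. Over chromosomes 1 to 19 and X there were 8.28 regions per 10 Mb, but chromosome 15 had 30.3 (315 regions), chromosome 10 had 20.6 (269), chromosome 3 had 14.3 (229), chromosome 19 had 14.0 (86) and chromosome 8 had 12.9 (167). At the other end, chromosome 18 had 1.21 (11 regions), chromosome 7 had 1.79 (26), chromosome 14 had 2.48 (31) and chromosome 9 had 2.65 (33). Chromosome 15 is 3.82% of the genome and held 14.4% of the regions (13.0% to 15.9%). Of the cyproheptadine peaks on chromosome 15, 15.5% were cyproheptadine-only, against 1.28% on chromosome 18. Chromosome 15 held 6.02% of the whole cyproheptadine list and 5.14% to 5.39% of each other list. Along chromosome 15 every 10 Mb stretch held regions, between 8 and 55 with a median of 31. The same held for chromosomes 10 and 3, with 4 to 40 and 3 to 36 regions per stretch.

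The same densities were computed for the other regions found in 1 list. DKI-only regions followed a similar order over the 20 chromosomes, with Pearson's r of 0.964 and Spearman's rho of 0.917 against the density of cyproheptadine-only regions, and their highest density was also on chromosome 15, 8.07 per 10 Mb. Loxapine-only regions had an r of 0.673 and a rho of 0.660, Q7SST-only regions 0.602 and 0.519, Q111SST-only regions 0.517 and 0.623, and meclizine-only regions 0.104 and 0.358. The regions of all 6 lists had 0.459 and 0.501. These are descriptions over 20 points that share chromosome length, gene content and base composition. The ratio of the densest to the sparsest chromosome was 24.96 for cyproheptadine-only regions, 7.83 for DKI-only, 2.86 for loxapine-only, 3.17 for Q7SST-only, 3.40 for Q111SST-only and 3.42 for meclizine-only. The 1066 regions on chromosomes 15, 10, 3, 19 and 8 were like the 1115 on the other 15 chromosomes in median score (13 and 13), width (387 and 371 bp) and GC content (32.3% and 33.7%).

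**Figure D4:**
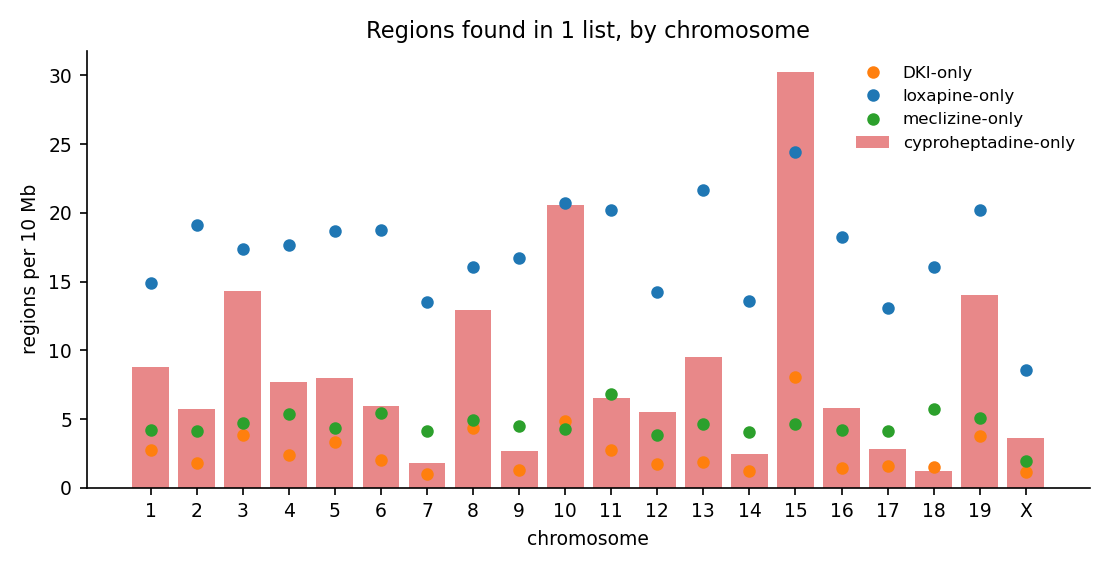
Regions found in 1 list per 10 Mb of each chromosome, with cyproheptadine-only regions as bars and DKI-only, loxapine-only and meclizine-only regions as points. Chromosome 15 has 30.3 cyproheptadine-only regions per 10 Mb and chromosome 18 has 1.21, while meclizine-only regions vary between 1.99 and 6.80.

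At a finer scale, 800 regions (36.5%) lay within 100 kb of another and formed 300 runs. Runs with the most regions are given here. A run of 17 regions at chr4:147029613-147585976 spanned Zfp978, Zfp982, Zfp985, Zfp988, Zfp991 and Rex2, where the cyproheptadine list held 23 peaks and the others 9 to 12. A run of 17 at chr8:20281961-20712084 spanned Gm15319 and Gm21119, with 33 peaks with cyproheptadine, 21 with DKI and 8 to 11 in the others. A run of 10 at chr8:19910151-20141316, with Gm31371, had 16 peaks with cyproheptadine, 8 with DKI and 3 to 7 in the others. A run of 9 at chr13:65433094-65720374, with Gm10139, had 10 peaks with cyproheptadine, 3 with DKI and 0 in the remaining lists. A run of 9 at chr5:15497559-15673491, with Speer4d, a gene of a family expressed in testis, had 13 peaks with cyproheptadine, 7 with DKI and 1 to 3 in the others. The runs were picked for their number of cyproheptadine-only regions, so that a larger count in the cyproheptadine list follows from the choice. Among the other 5 lists DKI had the most peaks in each of these 5 runs.

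Regions of all 6 lists beside a cyproheptadine-only region were also compared. There were 124 of them within 5 kb. The width with cyproheptadine minus the width in Q111SST had a median of -316 bp there, and 9 of the 124 were wider with cyproheptadine. Over all 21497 regions of all 6 lists the median was -215 bp. With DKI the median differences from Q111SST were -360.5 bp and -286 bp. The shared peaks beside cyproheptadine-only regions were therefore narrower, not broader, in the cyproheptadine list, as shared peaks were in general.

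Short motifs were searched in 300 bp about the centre of each region, on both strands and each on its own, so that matches may share letters. TGANTCA, the AP-1 motif bound by Fos and Jun proteins, was in 15.5% of the cyproheptadine-only regions (14.0% to 17.1%), against 24.8% of all merged regions and 35.3% of loxapine-only regions (33.9% to 36.7%). Regions of all 6 lists had 17.4% (16.9% to 17.9%), which overlapped the interval of cyproheptadine-only regions. DKI-only regions had 19.2% (16.4% to 22.3%). Because the regions differed in base composition, the share was read again within bands of GC content, a step added after the data were seen. Below 30% GC it was 9.21% in cyproheptadine-only regions (7.24% to 11.7%) and 20.9% in loxapine-only regions (15.8% to 27.1%). Between 30% and 35% it was 13.5% and 30.8%, between 35% and 40% it was 17.3% and 37.3%, and between 40% and 45% it was 25.8% and 35.6%. At 45% or more it was 31.4% (24.6% to 39.1%) and 37.6% (34.9% to 40.3%). Against loxapine-only regions the share was thus lower in every band, although the intervals at 45% or more overlapped. DKI-only regions were closer, with 16.5% (10.6% to 24.9%) below 30% GC, 14.7% between 30% and 35%, 16.0% between 35% and 40% and 27.97% between 40% and 45%, and their intervals overlapped those of the cyproheptadine-only regions in every band. In all merged regions the share was 14.5%, 23.9%, 31.6% and 31.3% in the bands below 45%, in rising order of GC. Each of these was above the cyproheptadine-only share. At 45% or more the share in all merged regions was 20.6%, below the 31.4% of cyproheptadine-only regions. DKI-only and Q111SST-only regions had 24.3% (17.4% to 32.9%) and 25.98% (22.9% to 29.3%) there, and both intervals overlapped that of cyproheptadine-only regions.

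Motifs that contain CG were rarer in the cyproheptadine-only regions than in all merged regions. GGGCGG, the GC box bound by Sp family factors, was in 1.10% of the cyproheptadine-only regions (0.740% to 1.63%), against 13.8% of all merged regions. CCGGAAG, bound by ETS factors, was in 0.367% against 2.72%, and TGACGTCA, bound by CREB and ATF factors, in 0.0917% against 0.462%. In each other class found in 1 list they were also below the share of all merged regions. The GC box was in 2.84% of loxapine-only, 3.37% of DKI-only, 5.86% of Q111SST-only, 8.60% of meclizine-only and 9.47% of Q7SST-only regions. The interval of each of these classes lay above that of cyproheptadine-only regions. The ETS letters were in 0.784% (0.564% to 1.09%) of loxapine-only and 1.03% (0.498% to 2.10%) of DKI-only regions. Both intervals overlapped the 0.186% to 0.722% of cyproheptadine-only regions. Q7SST-only regions had 1.65% (1.39% to 1.96%), above that range. TGACGTCA was in between 0.172% (Q111SST-only) and 0.440% (DKI-only) of these classes, and each interval overlapped that of cyproheptadine-only regions. CANNTG, the E-box, was in 74.98% against 76.6%, and a run of at least 6 CA units in 2.52% against 2.84%. Only the E-box and the CA run were near the share of all merged regions. A match is a description of the letters in the window and not of a bound site.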

How the data were processed

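H3K4me3 ChIP-Seq was performed on 6 samples, 1 per condition. The authors deposited 1 peak list per sample with a whole-number score for each peak, lowest value 10, whose scale is not given in the sources used here. The submitters' processing notes name Trimmomatic 0.36, Bowtie2, SAMtools 1.3, MACS2 and mm10. Thresholds, input control, pooling of the triplicate treatments and read totals are not given, so the depth is unknown and a longer list can come from a deeper library. Scores were read within a list, except that 1 alternative applied the median score of all lists to each of them, and the plot of shares by score draws the lists on 1 axis.

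Of 21 chromosomes compared, 0 had a peak beyond its end in GRCm38. Peaks overlapping by at least 1 bp were merged. Gene starts were those of all transcripts in GENCODE M21. Base composition and masked repeats were read from the GRCm38.p6 genome, for which 7 regions on contigs had no value. Shares carry 95% Wilson intervals. With 1 list per condition there was no test. The merging and distance steps were tested on simulated data, and base composition on a sequence of known content.

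The regions and gene lists were chosen with earlier results of these data known. Named were the 10 regions of highest score, the 5 widest, the 10 protein-coding genes with a start within 1 kb of the regions of highest score, the 5 with most regions, and listed genes with a region, up to 4 for longer lists and more where scores tied. Of these genes, 1 is not reported here. Alternatives were other merging, overlap, score, list size and distance settings. Python 3.11.15, pandas 2.3.3, NumPy 2.4.6, SciPy 1.17.1, pysam 0.24.0 and matplotlib 3.10.9 were used.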

Additional observations from a re-analysis of the deposited data

How the results depend on the processing

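No paired analysis was possible because there was 1 list for every condition. Of 54 values recomputed under other settings, 28 stayed within the interval of the reported value or within 1.5 times the reported count, and 26 moved. A change of sign was possible only for the width difference of shared regions beside cyproheptadine-only regions, which stayed negative. Dropping all peaks under the median score of the 6 lists together gave 115 cyproheptadine-only regions, of which 8.70% lay within 1 kb of a start, with medians of 48762.5 bp to a region of all 6 lists, 351 bp in width and 42.4% GC, and 14 of the 115 were among the 2189 regions. Keeping the regions at or above their median score gave 1221, with medians of 314 bp in width and 33.4% GC. With equal list sizes there were 1801 cyproheptadine-only regions, with medians of 43689 bp to a region of all 6 lists, 315 bp in width and 36.2% GC. The numbers of Q111SST-only, loxapine-only and DKI-only regions went from 1747, 4473 and 684 to 1126, 1312 and 1432. A 50% reciprocal overlap gave 4661 regions, 14.4% of them within 1 kb of a start, and medians of 25154 bp, 339 bp and 37.8% GC. Without regions that had another list's peak within 5 kb the medians were 86986.5 bp and 32.4% GC. The share near a start was 0.822% for a start under the region, 23.2% within 5 kb and 3.29% for protein-coding starts, and 12 and 271 protein-coding genes had a start under a region or within 5 kb. The stricter settings hold fewer peaks by construction, and the cause of the shift in GC content was not tested. The unknown depth of each library limits every count of regions found in 1 list.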

Other observations

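Regions found in the cyproheptadine list and exactly 1 other list came mostly from loxapine. There were 556 shared with loxapine, 96 with DKI, 76 with Q7SST, 69 with Q111SST and 30 with meclizine, or 12.2, 3.12, 1.98, 1.71 and 0.778 per 1000 peaks of the partner list. The 556 regions shared with loxapine had a median GC content of 40.01%, and the AP-1 letters TGANTCA stood in 40.1% of them. The 96 shared with DKI had a median GC content of 38.1%, and 8.33% of them held those letters. Of the regions shared with loxapine 8.81% were on chromosome 15, and of those shared with DKI 3.13%. The regions shared with loxapine and those shared with DKI had median cyproheptadine scores of 17 and 18, above the 13 of the cyproheptadine-only regions.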
